A study of Mus musculus with 18 samples.

Results

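The 9 genes described here, *Mbp*, *Mag*, *Mog*, *Mobp*, *Cnp*, *Aspa*, *Cldn11*, *Mal* and *Ugt8a*, encode proteins of the myelin sheath or enzymes of the oligodendrocytes that make it. They were read from all probe sets of an Affymetrix Mouse Genome 430 2.0 array annotated to one of these symbols, 24 of 45101 probe sets. A mean signal above 20 over all arrays was found for 22 of the 24, and the other 2, one of *Mobp* and one of *Ugt8a*, were not tested. Each gene was represented by its brightest probe set, so that all 9 were among the 11657 genes tested. *Mbp* had 8 probe sets above the minimum, *Mobp* 4, *Cnp* 3, *Mal* 2 and the other 5 genes 1 each.

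Hippocampal RNA of male C57BL/6J mice was hybridised to 18 arrays, 3 in each of 6 groups, to compare intermittent hypoxia treatment (IHT), a model of sleep-disordered breathing, with aging. Each day of IHT took 8 h, and every 3 min the chamber received nitrogen for 1 min and then room air for 2 min, so that inspired oxygen moved between 21% and 5%. The 12 m group was reared for 12 months without IHT. The IH28D group received IHT for 28 days and was killed right after the last session, and its control, Ctrl28, was kept in normoxia for 28 days. The IH5DR2 group received IHT for 5 days and then 64 h of normoxia, the IH5D group received IHT for 5 days with no recovery, and Ctrl was their untreated control. No group carried a transgene or a deletion, and mice were 10 weeks old when the experiments began. The sources do not say whether each array held a single mouse, so p-values measure the spread between arrays, which may be partly technical.

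Oligodendrocytes wrap axons in a compacted multilayered membrane that speeds conduction and supports the axon. Compact myelin is held together by MBP on its inner faces and by MOBP, while MAG faces the axon, MOG lies on the outer surface and claudin-11 seals the layers. Myelin membrane is rich in galactolipids and cholesterol, and the transcription factors SOX10 and MYRF drive its genes in maturing oligodendrocytes. In hippocampus these cells lie mainly in the fibre tracts and in the layers with myelinated axons. In bulk tissue, fewer oligodendrocytes and less RNA per oligodendrocyte cannot be told apart.

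The sequences before the transcription starts of 5 members are shown because the tested probe sets of these genes moved in opposite directions in the arrays below. Windows of 250 bases upstream of RefSeq starts (GRCm38.p6), available for 8 of the 9 genes, were searched on both strands for ACAAAG, letters bound by SOX proteins, and CTGGNAC, letters bound by MYRF. Matches are in capitals, read 5′ to 3′ on the gene's strand, so that CTTTGT is ACAAAG on the other strand. The motifs can share their AC, and none of the matches printed overlapped. The windows were chr7:30914864-30915113 for *Mag* (minus strand), chr17:37023399-37023648 for *Mog* (minus), chr11:100574689-100574938 for *Cnp* (plus), chr9:120149492-120149741 for *Mobp* (plus) and chr3:125938653-125938902 for *Ugt8a* (minus).
Mag: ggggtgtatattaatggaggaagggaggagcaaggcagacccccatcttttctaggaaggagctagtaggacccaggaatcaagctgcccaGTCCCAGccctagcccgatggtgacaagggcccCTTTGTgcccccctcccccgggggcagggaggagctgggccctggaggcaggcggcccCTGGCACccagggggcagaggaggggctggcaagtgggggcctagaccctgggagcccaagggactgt
Mog: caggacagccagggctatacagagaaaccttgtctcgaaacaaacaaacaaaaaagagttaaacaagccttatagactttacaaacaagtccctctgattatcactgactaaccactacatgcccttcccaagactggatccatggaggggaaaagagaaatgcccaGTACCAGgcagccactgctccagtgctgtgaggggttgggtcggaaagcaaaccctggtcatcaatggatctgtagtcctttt
Cnp: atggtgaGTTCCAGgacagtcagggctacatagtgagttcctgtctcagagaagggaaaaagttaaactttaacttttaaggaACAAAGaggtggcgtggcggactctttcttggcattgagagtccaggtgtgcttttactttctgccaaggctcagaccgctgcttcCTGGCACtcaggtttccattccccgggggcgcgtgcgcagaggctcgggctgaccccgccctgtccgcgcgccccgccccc
Mobp: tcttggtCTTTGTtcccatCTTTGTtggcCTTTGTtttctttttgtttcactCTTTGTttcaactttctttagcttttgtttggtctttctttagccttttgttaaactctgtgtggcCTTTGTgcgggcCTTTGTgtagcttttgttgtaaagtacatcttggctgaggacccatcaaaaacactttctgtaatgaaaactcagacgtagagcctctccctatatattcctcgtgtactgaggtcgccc
Ugt8a: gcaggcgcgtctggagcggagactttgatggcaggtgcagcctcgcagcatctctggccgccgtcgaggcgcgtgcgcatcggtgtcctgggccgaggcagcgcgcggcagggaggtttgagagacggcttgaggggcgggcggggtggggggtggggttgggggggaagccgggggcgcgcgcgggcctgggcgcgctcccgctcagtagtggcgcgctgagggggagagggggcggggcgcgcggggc
*Mag* has 3 RefSeq starts, and the window printed is that of the first listed. The *Mag* and *Cnp* windows printed each held 2 matches to CTGGNAC and 1 to ACAAAG, the *Mog* window held 1 match to CTGGNAC, and the *Mobp* window held 6 matches to ACAAAG. Of the other *Mag* windows, chr7:30914923-30915172 overlaps the one printed and held the same matches, and chr7:30914322-30914571 held none. Neither motif was present in the windows of *Ugt8a*, *Aspa*, *Cldn11* and *Mal*, although *Cldn11* fell at 12 m like *Mag*, *Mog* and *Cnp*. Whether matches go with the direction of change was not tested. Among 32851 windows of the same length, 16.5% held ACAAAG and 16.1% held CTGGNAC, so a match is a description of these letters and not of a bound site.

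Signals were MAS5 values scaled to a common mean on each array, and the signals of different probe sets cannot be set against each other. Several groups of arrays stood apart in ways that bear on the results. The gap between the 3′ and 5′ control probe sets of *Actb* and *Gapdh*, which widens in degraded or unevenly amplified RNA, was 0.617 to 0.861 (log2) in 12 m, 0.328 to 0.422 in IH28D, 0.822 to 2.39 in Ctrl28, 0.475 to 0.487 in IH5DR2, 0.459 to 0.535 in IH5D and 0.339 to 0.469 in Ctrl. The value of 2.39 belonged to Ctrl28 array 1, the other Ctrl28 arrays had 0.822 and 0.966, and the Ctrl28 arrays carry later record numbers than the rest, so a difference in handling and the group cannot be told apart. The summed signal of 10 choroid plexus markers was 727 to 1781 in 12 m, against 1883 on Ctrl array 3 and 16040 and 19660 on the other Ctrl arrays, and 9 of the 10 fell. Array 3 was also the lowest for this sum in IH28D (5116), IH5DR2 (10470) and IH5D (3372). The summed signal of 7 neocortical markers was 7922 on 12 m array 3, against 2527 and 2555 on the other 12 m arrays and 1817 to 2628 in Ctrl. Of 10 markers of hippocampal neurons, 1 rose and 6 fell at 12 m, and their sum was 2425 on 12 m array 3 and 4032 and 4130 on the other 12 m arrays, against 4566 to 4943 in Ctrl. The part of these differences in the results below was not tested except where a value is given.

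**Figure D1:**
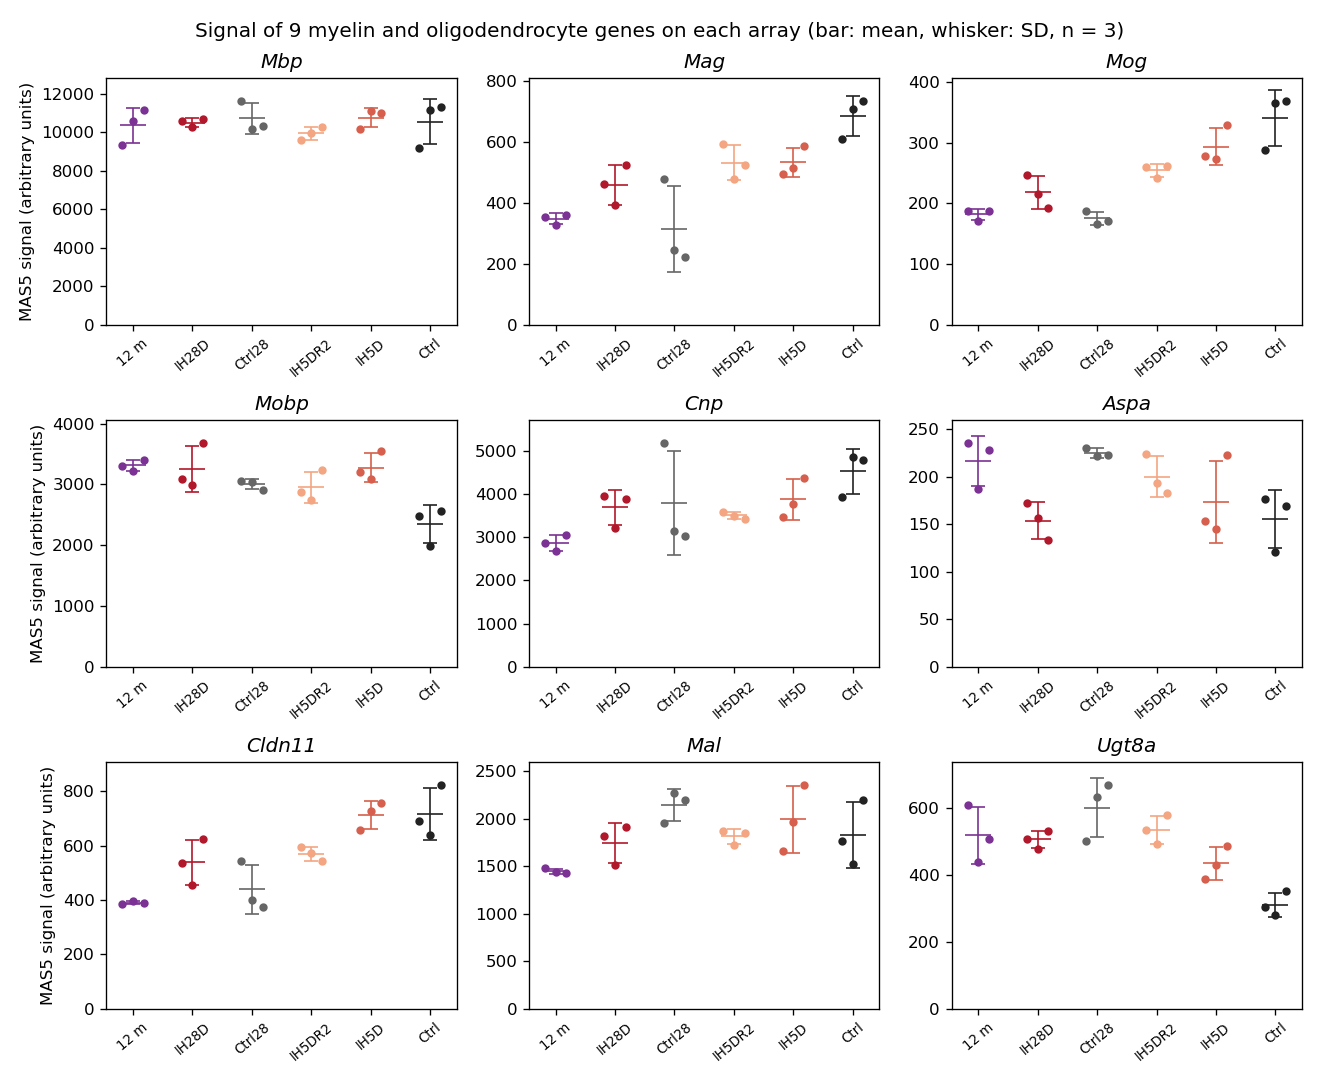
Signal of the tested probe set of each of the 9 genes on every array (linear MAS5 scale starting at 0, 1 panel per gene). Each point is 1 array and the horizontal bar is the mean of the 3 arrays of a group. *Mag*, *Mog* and *Cldn11* are higher on the 3 Ctrl arrays than on any 12 m array, and *Ugt8a* is lower on the 3 Ctrl arrays than on any other array.

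Aging was set against Ctrl first. *Mag*, *Mog*, *Cldn11* and *Cnp* fell at 12 m, *Ugt8a*, *Mobp* and *Aspa* rose, and *Mal* and *Mbp* did not pass the threshold. A gene was called at an adjusted p below 0.05 in limma, with Benjamini-Hochberg adjustment over all 11657 genes. In this comparison 21.7% of all genes were called as risen and 31.6% as fallen, against 3 and 4 of the 9 listed genes. The median log2 change was -0.32 over the 9 genes and -0.23 over all genes. The 12 m and Ctrl arrays did not overlap for 8 of the 9 genes, all but *Mbp*, and for 62.9% of all genes.

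On the tested probe sets, the decreases of 3 surface and adhesion proteins were as follows. *Mag*, the myelin-associated glycoprotein on the membrane next to the axon, had signals of 353.6, 326.2 and 360.9 on the 12 m arrays, against 608.4, 705.2 and 733.6 on the Ctrl arrays. Every 12 m array was below every Ctrl array, and the log2 change was -0.97 ± 0.21 (SE, adjusted p = 0.00107). *Mog*, the glycoprotein of the outermost myelin surface, had 188, 171.3 and 186.7 at 12 m, against 287.7, 364.8 and 368.8 in Ctrl. The arrays were again apart, with the lowest Ctrl array well above the highest 12 m array, and the log2 change was -0.90 ± 0.13 (adjusted p = 6.88e-05). *Cldn11*, the claudin of the tight junctions between myelin layers, had 386.7, 396.3 and 387.5 at 12 m, against 690.4, 638 and 823.5 in Ctrl. The 12 m values lay close together and below all of the Ctrl values, and the log2 change was -0.87 ± 0.15 (adjusted p = 0.00018).

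*Cnp*, the cyclic nucleotide phosphodiesterase that keeps the cytoplasmic channels of myelin open, had 2867, 2687 and 3043 at 12 m, against 3926, 4872 and 4788 in Ctrl. The groups did not overlap, and the log2 change was -0.66 ± 0.16 (adjusted p = 0.00335). All 3 *Cnp* probe sets fell at 12 m when each was fitted on its own, by 0.98, 0.66 and 0.99 on the log2 scale.

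*Ugt8a*, the enzyme that makes galactosylceramide, moved the other way. It had 608.2, 438.6 and 505.3 on the 12 m arrays, against 302.7, 279.5 and 350 on the Ctrl arrays, with no overlap. The log2 change was 0.73 ± 0.15 (adjusted p = 0.000643). *Aspa*, aspartoacylase, which releases acetate from N-acetylaspartate for lipid synthesis, had 235.8, 186.8 and 228.2 at 12 m, against 176.5, 120.8 and 168.8 in Ctrl. The lowest 12 m array was just above the highest Ctrl array, and the log2 change was 0.49 ± 0.18 (adjusted p = 0.0274).

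*Mobp*, a small basic protein of compact myelin, had 3309, 3216 and 3408 at 12 m on its tested probe set, against 2477, 1985 and 2567 in Ctrl. This increase was larger than the spread between arrays (log2 change 0.51 ± 0.12, adjusted p = 0.0017). *Mal*, a raft proteolipid that sorts myelin membrane, had 1478, 1440 and 1427 at 12 m and 1766, 1519 and 2200 in Ctrl, which left the groups apart but the change under the threshold (-0.32 ± 0.14, adjusted p = 0.0679). *Mbp*, myelin basic protein, had 9352, 10580 and 11140 at 12 m and 9184, 11130 and 11300 in Ctrl. Its log2 change was -0.02 ± 0.10 (adjusted p = 0.86) on a probe set that ranked between 3 and 20 of the 45101 on every array, and whether its signal was near the ceiling of the scanner was not tested.

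The *Aspa* call was lost without 12 m array 1 (adjusted p = 0.0905), 12 m array 3 (0.071) or Ctrl array 2 (0.163), and *Mal* was called without Ctrl array 2 (0.0273) or Ctrl28 array 1 (0.0457). The deposited scaling mattered for the increases: with each array centred on its median, where the median over all genes was -0.48, *Mobp* had a log2 change of 0.27 (adjusted p = 0.129), *Aspa* 0.25 (0.265) and *Mal* -0.56 (0.00829). With that centring 1 of the 9 genes rose and 5 fell, beside 16.2% and 45.6% of all genes. Of all genes called 26.2% rose, against 40.7% with the deposited scaling. *Mag*, *Mog*, *Cldn11* and *Cnp* fell and *Ugt8a* rose in both.

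**Figure D2:**
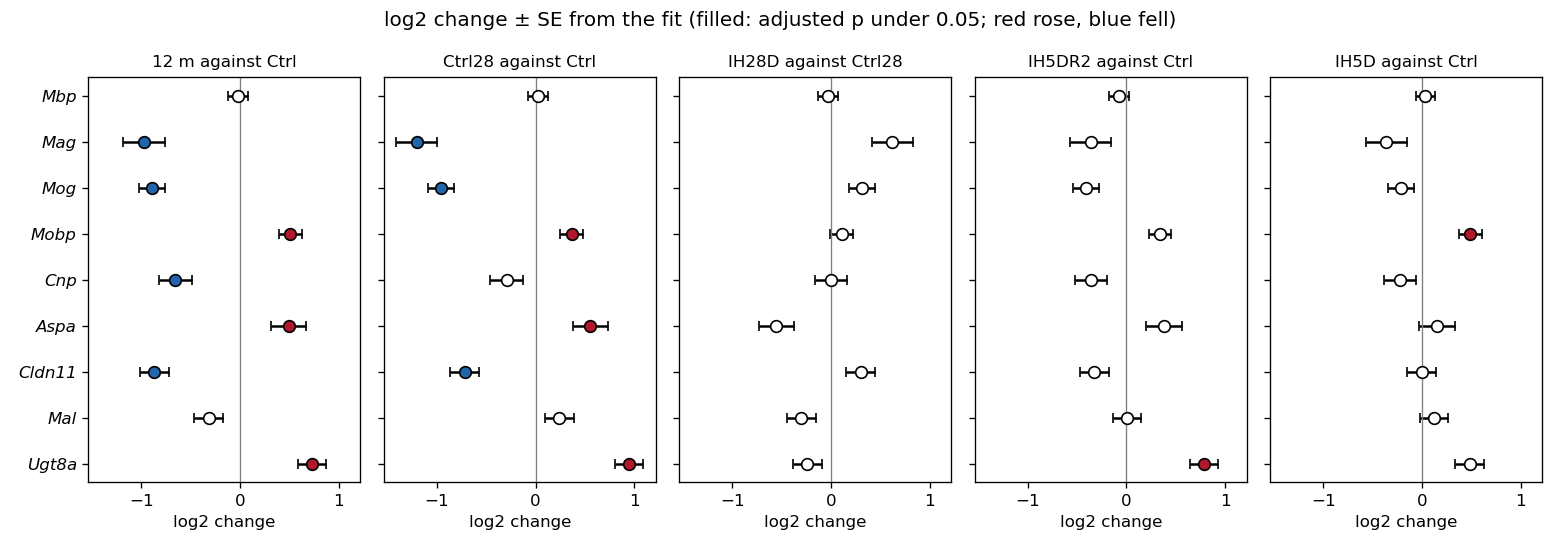
log2 change of the 9 genes in 5 comparisons, with points for the estimate and bars for its SE from the limma fit. Filled points passed an adjusted p of 0.05 (red rose, blue fell), and they are most numerous in the first 2 panels, 12 m against Ctrl with 7 and Ctrl28 against Ctrl with 6.

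The controls kept for 28 days in normoxia were then set against Ctrl, with no IHT in either group. *Mag*, *Mog* and *Cldn11* fell and *Ugt8a*, *Aspa* and *Mobp* rose in Ctrl28, whereas 16.9% of all genes were called as risen and 21% as fallen. This comparison shares the Ctrl arrays with the aging comparison, so its values are given beside the others and not as a second test of them. The median log2 change was 0.03 over the 9 genes and -0.08 over all genes. The Ctrl28 and Ctrl arrays did not overlap for 6 of the 9 genes, and for 39.6% of all genes.

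*Mag* had 476.5, 243.2 and 223 on the Ctrl28 arrays, against 608.4, 705.2 and 733.6 on the Ctrl arrays (log2 change -1.20 ± 0.21, adjusted p = 0.000327). Ctrl28 array 1 stood apart within the range of the IH28D arrays, and the others were the lowest *Mag* values of all 18 arrays. *Mog* had 187.5, 166.3 and 171 in Ctrl28 (-0.95 ± 0.13, adjusted p = 5.45e-05) and *Cldn11* 542.8, 398.7 and 375.7 (-0.72 ± 0.15, adjusted p = 0.00121), each below all Ctrl arrays. *Ugt8a* had 501.5, 631 and 668.4 in Ctrl28, all above the Ctrl arrays (0.95 ± 0.15, adjusted p = 0.000128). *Aspa* averaged 225.1 ± 4.85 in Ctrl28 and 155.4 ± 30.2 in Ctrl (SD, n = 3 each), a log2 change of 0.55 (adjusted p = 0.0214), and *Mobp* 3005 ± 80.2 in Ctrl28 and 2343 ± 313 in Ctrl, a change of 0.37 (adjusted p = 0.019). The *Mobp* increase held for the tested probe set alone: 2 other *Mobp* probe sets fell in Ctrl28, the mean of its probe sets gave -0.25 (adjusted p = 0.0738), and median centring gave 0.33 (adjusted p = 0.093).

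*Cnp* had 5192, 3153 and 3039 in Ctrl28, so that array 1 was above and the others below all Ctrl arrays, and its log2 change of -0.29 did not pass (adjusted p = 0.167). Without Ctrl28 array 1, the array with the widest 3′ to 5′ gap, *Cnp* fell by 0.54 (adjusted p = 0.00109). The *Mobp* and *Aspa* calls were lost without Ctrl array 2 (adjusted p = 0.123 and 0.135) or Ctrl28 array 2 (0.0544 and 0.0511), and the *Aspa* call without Ctrl28 array 3 (0.0538). With Ctrl28 array 1 left out and this gap added to the fit, chosen after seeing the data, 0 of the 9 genes were called in Ctrl28 against Ctrl and 2 in 12 m against Ctrl. The changes in Ctrl28 were then -1.24 for *Mag* (adjusted p = 0.0812), -0.90 for *Mog* (0.189), -0.87 for *Cldn11* (0.181), 1.37 for *Ugt8a* (0.0704), 0.39 for *Aspa* (0.725) and 0.21 for *Mobp* (0.759). With the gap added and all arrays kept, *Mag* (-1.83), *Mog* (-1.04), *Cldn11* (-1.03), *Ugt8a* (1.20) and *Cnp* (-0.74, adjusted p = 0.00114) were called. The share of all genes called is not given for either fit with the gap.

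With Ctrl28 in place of Ctrl as the control of the 12 m group, 16.3% of all genes were called and 1 of the 9, *Mal*, which fell. *Mal* had 1478, 1440 and 1427 at 12 m, against 1954, 2272 and 2198 in Ctrl28 (log2 change -0.56, adjusted p = 0.0142). *Mag* averaged 346.9 ± 18.3 at 12 m and 314.2 ± 141 in Ctrl28, *Mog* 182 ± 9.3 at 12 m and 174.9 ± 11.2 in Ctrl28, and *Ugt8a* 517.4 ± 85.4 at 12 m and 600.3 ± 87.6 in Ctrl28. None of these 3 passed the threshold in that comparison.

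Exposure to IHT for 28 days was set against Ctrl28. None of the 9 genes passed the threshold in limma. An unadjusted p below 0.05 was found for 3 (*Mag*, *Aspa* and *Mog*), beside 2899 of all 11657 genes. The test in the methods, run on signals, called 1 at an unadjusted p below 0.05, and its share of all genes is not given. Of all genes 6.06% were called as risen and 2.44% as fallen. *Mag* had 461, 390.6 and 523.4 in IH28D, against 476.5, 243.2 and 223 in Ctrl28, and Ctrl28 array 1 lay within the IH28D values (log2 change 0.62 ± 0.21, adjusted p = 0.071). *Aspa* had 172, 156.9 and 132.9 in IH28D, against 230.7, 221.8 and 222.8 in Ctrl28, with every IH28D array lower (-0.56 ± 0.18, adjusted p = 0.0607). *Mog* had 246.5, 214.8 and 192.6 in IH28D, against 187.5, 166.3 and 171 in Ctrl28, with every IH28D array higher (0.31 ± 0.13, adjusted p = 0.152). The IH28D and Ctrl28 arrays did not overlap for 3 of the 9 genes, and for 23.6% of all genes.

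The other 6 genes had log2 changes between -0.30 and 0.30 in IH28D against Ctrl28, among them *Mobp* with 3087, 2993 and 3684 in IH28D, against 3062, 3039 and 2913 in Ctrl28. *Cnp* averaged 3692 ± 409 in IH28D and 3795 ± 1211 in Ctrl28, the wide SD in Ctrl28 coming with array 1. Without Ctrl28 array 1, *Mag* (0.97, adjusted p = 9.26e-05) and *Cldn11* (0.47, adjusted p = 0.0196) rose in IH28D, where 11.4% of all genes rose and 4.19% fell. *Aspa* was called as fallen without Ctrl array 2 (adjusted p = 0.0464) or IH5D array 3 (0.0432), which belong to other groups and enter through the shared estimate of spread.

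Against Ctrl instead of Ctrl28, where 17.5% of all genes were called as risen and 15.8% as fallen, 2 of the 9 genes rose and 3 fell in IH28D. *Mag* (log2 change -0.58, adjusted p = 0.0399), *Mog* (-0.64, 0.00283) and *Cldn11* (-0.42, 0.037) fell, and *Mobp* (0.48, 0.00624) and *Ugt8a* (0.71, 0.00278) rose. The direction for *Mag*, *Mog*, *Cldn11* and *Ugt8a* in IH28D was therefore opposite to that of their changes against Ctrl28.

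Exposure to IHT for 5 days changed 1 of the 9 genes against Ctrl. *Mobp* rose, while 5.4% of all genes were called as risen and 1.12% as fallen. *Mobp* had 3196, 3082 and 3551 in IH5D, against 2477, 1985 and 2567 in Ctrl, with no overlap (log2 change 0.49 ± 0.12, adjusted p = 0.0262). *Ugt8a* had 388.1, 429 and 484.6 in IH5D, against 302.7, 279.5 and 350 in Ctrl, also with no overlap, but narrowly missed the threshold (0.48 ± 0.15, adjusted p = 0.0534). *Mag* had 494.7, 514.3 and 585.8 in IH5D, all below the Ctrl arrays (-0.36 ± 0.21, adjusted p = 0.253). These were the 3 of the 9 genes whose arrays did not overlap, and 41.4% of all genes did not overlap. The *Mobp* call was lost without Ctrl array 2 (adjusted p = 0.161), Ctrl array 3 (0.0648), IH5D array 1 (0.1) or IH5D array 3 (0.105). Without Ctrl28 array 1, which enters through the estimate of spread, 3 genes were called, *Mobp*, *Ugt8a* (0.012) and *Mag* (0.0394). In that fit 14.2% of all genes were called as risen and 9.19% as fallen. Without Ctrl28 array 3 *Mobp* and *Ugt8a* were called. With median centring, or with the mean of each gene's probe sets, 0 of the 9 were called.

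After recovery in normoxia, 1 of the 9 genes passed the threshold against Ctrl, *Ugt8a*, with 4.38% of all genes called as risen and 1.24% as fallen. *Ugt8a* had 533.3, 492.2 and 576.9 in IH5DR2, against 302.7, 279.5 and 350 in Ctrl (log2 change 0.78 ± 0.15, adjusted p = 0.0146). All IH5DR2 arrays were well above all Ctrl arrays. The arrays did not overlap for 7 of the 9 genes, and for 40.8% of all genes. *Mog* had 260.1, 241.9 and 260.9 in IH5DR2, all below the Ctrl arrays (-0.41 ± 0.13, adjusted p = 0.0692), *Mobp* 2868, 2747 and 3236, all above them (0.34, adjusted p = 0.0801), and *Cnp* 3595, 3502 and 3428, all below them (-0.36, adjusted p = 0.16). The *Ugt8a* call was lost without Ctrl array 2 (adjusted p = 0.12), Ctrl array 3 (0.0561), IH5DR2 array 2 (0.0574) or IH5DR2 array 3 (0.072). Leaving out Ctrl28 array 1 gave 5 called genes, *Ugt8a*, *Mobp* (0.0321), *Mag* (0.0388), *Mog* (0.0242) and *Cnp* (0.0238). In that fit 13.7% of all genes were called as risen and 8.6% as fallen. Without Ctrl array 1 *Mog* was called (0.0246).

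The recovery interval itself, IH5DR2 against IH5D, gave no call in limma for the 9 genes or for any gene (0%), and 418 genes had an unadjusted p below 0.05, among them 1 of the 9. That gene was *Cldn11*, with 594.2, 571.5 and 542.7 in IH5DR2, against 656.8, 725.8 and 757.6 in IH5D (log2 change -0.32, unadjusted p = 0.0404, adjusted p = 0.999). The test in the methods also gave 1 of the 9 at an unadjusted p below 0.05, and its share of all genes is not given. *Mag* averaged 530.8 ± 57.2 in IH5DR2 and 531.6 ± 47.9 in IH5D (SD, n = 3 each).

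Whether 28 days differed from 5 days was tested as the difference of the changes, IH28D minus Ctrl28 less IH5D minus Ctrl, which share no array. *Mag* (0.98 ± 0.29 on the log2 scale, adjusted p = 0.0426) and *Ugt8a* (-0.72 ± 0.21, adjusted p = 0.0338) passed, 2 of the 9 genes, against 9.66% of all genes. *Mag* had changes of 0.62 after 28 days and -0.36 after 5 days, and *Ugt8a* of -0.24 after 28 days and 0.48 after 5 days, each measured against its own control. *Mog* (0.52, adjusted p = 0.0856) and *Aspa* (-0.71, adjusted p = 0.0839) did not pass. The *Mag* call was lost in 14 and the *Ugt8a* call in 9 of the 18 fits that left out 1 array. With Ctrl28 array 1 left out, *Mog* and *Cnp* were called as well as both, 4 genes in all. The share of all genes called for the difference in that fit was not computed.

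Across the 6 groups *Mag* and *Mog* had the same order of means, Ctrl, IH5D, IH5DR2, IH28D, 12 m and Ctrl28 from high to low, with ratios of the highest to the lowest mean of 2.17 and 1.95. For *Mag* the arrays of neighbouring groups were apart between Ctrl and IH5D and between IH28D and 12 m, and overlapped elsewhere. For *Mog* they were apart between IH5D and IH5DR2 and between IH28D and 12 m. *Cldn11* differed in having Ctrl28 above 12 m, with a ratio of 1.84, and its neighbours were apart between IH5D and IH5DR2. *Ugt8a* ran from Ctrl28 through IH5DR2, 12 m, IH28D and IH5D to Ctrl with a ratio of 1.93, and the only neighbours apart were IH5D and Ctrl. The ratio was 1.58 for *Cnp*, 1.48 for *Mal*, 1.46 for *Aspa*, 1.41 for *Mobp* and 1.08 for *Mbp*, and for *Aspa* and *Mbp* all neighbouring groups overlapped.

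Over the 18 arrays the log2 signals of *Mag* and *Cldn11* had a Pearson correlation of 0.887, *Mag* and *Mog* 0.864 and *Mog* and *Cldn11* 0.86. *Ugt8a* correlated negatively with *Mog* (-0.715) and *Mag* (-0.692) and positively with *Mobp* (0.669) and *Aspa* (0.622). These are descriptions over arrays that share groups, control samples and array quality. The 8 genes outside the 9 whose log2 signal was most like the mean of the 9 standardised signals were *Mllt11* (0.827), *Aldh1a1* (0.79), *Crcp* (0.74), *Dpm1* (0.734), *Apba1* (0.726), *Rexo2* (0.723), *Mospd3* (0.72) and *Golga7* (0.719). Among the 9 themselves the same correlation ran between 0.729 for *Cnp* and -0.04 for *Ugt8a*, so the mean did not follow every member.

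Probe sets of one gene did not always move together. Each probe set above the minimum was also fitted on its own over 19926 probe sets. At 12 m 4 of the 22 member probe sets rose and 8 fell against Ctrl, beside 23.6% and 25.6% of all probe sets. In Ctrl28 4 rose and 8 fell against Ctrl, beside 16.8% and 17.8%. In IH28D 3 rose and 1 fell against Ctrl28, beside 5.86% and 2.31%. The positions of the probes in the transcripts were not used here.

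*Mobp* was split. Its tested set (1433785_at) rose at 12 m, and another one (1421010_at) rose by 0.57 on the log2 scale (adjusted p = 0.038). Another one (1436263_at) fell, with 422.5, 430 and 453.1 at 12 m, against 734.9, 792 and 710.9 in Ctrl (-0.78, adjusted p = 0.00445). The last one (1450088_a_at) had a change of 0.01 at 12 m and 93.39, 169.4 and 154.6 in Ctrl28, against 246.1, 249.6 and 261.1 in Ctrl (-0.90, adjusted p = 0.000821), where 1436263_at fell too (-0.58, adjusted p = 0.0331). The same probe set rose in IH28D, with 292.3, 325.5 and 323.4, against those Ctrl28 values (1.22, adjusted p = 0.000308). Averaged over its probe sets, *Mobp* had a log2 change of 0.08 at 12 m (adjusted p = 0.544), so its direction with age depended on the probe set.

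*Mbp* had no called probe set of 8 at 12 m, with log2 changes between -0.29 and 0.27. One of them (1451961_a_at) had 148.9, 486.8 and 375.6 in Ctrl28, against 1084, 1041 and 738.8 in Ctrl (-1.65 ± 0.33, adjusted p = 0.00127). It had 1162, 769.5 and 1002 in IH28D, and so rose against Ctrl28 (1.68, adjusted p = 0.00427), with Ctrl28 array 1 the lowest of all 18 arrays. Another one (1425263_a_at) fell in IH28D against Ctrl28 (-0.86, adjusted p = 0.0462). A *Cnp* probe set (1418980_a_at) had 560.1, 427 and 648.1 in IH28D, against 411.5, 290.4 and 278.7 in Ctrl28 (0.74, adjusted p = 0.00897). It fell in Ctrl28 against Ctrl (-1.17), as did another *Cnp* set (1449296_a_at, -0.88). The other *Mal* probe set (1432558_a_at) had 482.1, 508.1 and 479.4 at 12 m, against 749.9, 636.9 and 955 in Ctrl, with no overlap (-0.65, adjusted p = 0.0035). It rose in Ctrl28, with 1411, 1067 and 941.5 (0.55, adjusted p = 0.0156).

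**Figure D3:**
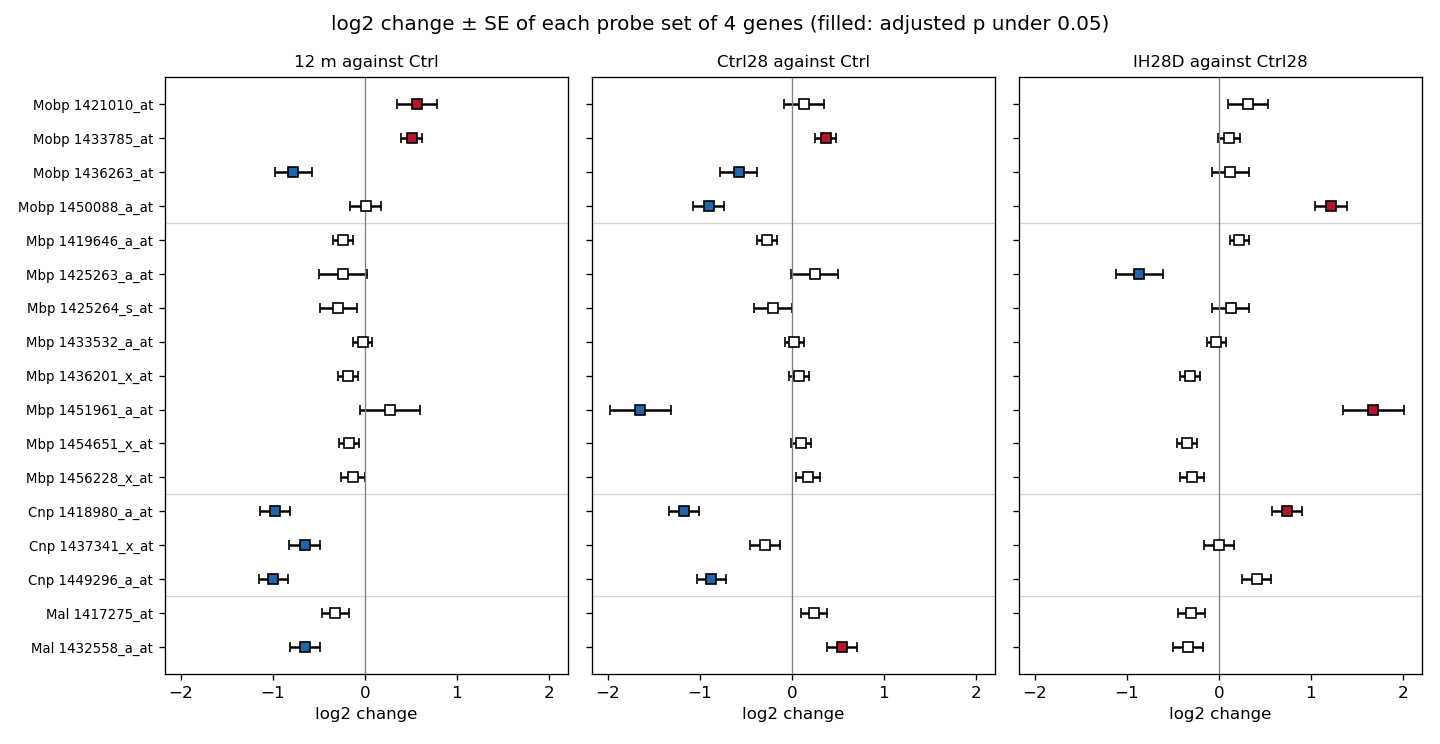
log2 change of every *Mobp*, *Mbp*, *Cnp* and *Mal* probe set above the minimum, fitted on its own, in 3 comparisons (points, estimate, filled for an adjusted p below 0.05). At 12 m the 3 *Cnp* probe sets all fell, while the *Mobp* probe sets lie on both sides of 0 and the 8 *Mbp* probe sets lie between -0.29 and 0.27.

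Other genes of the same cells were read from a list of 34, of which 30 were tested. At 12 m 4 of the 30 rose and 15 fell against Ctrl, beside 21.7% and 31.6% of all genes, with a median log2 change of -0.53, against -0.23 over all genes. *Gsn*, the actin-severing gelsolin, averaged 326.2 ± 30.2 at 12 m and 882.6 ± 216 in Ctrl (SD, n = 3 each), a log2 change of -1.41 (adjusted p = 4.11e-05), and *Sirt2*, a deacetylase abundant in myelin, fell by 0.85 (8.84e-05). *Ermn*, the cytoskeletal protein ermin of mature oligodendrocytes, averaged 451.5 ± 25.2 at 12 m and 119 ± 11.2 in Ctrl, a change of 1.93 (4e-05), and *Anln*, the scaffold protein anillin, rose by 1.50 (1.97e-05). With median centring 2 of the 30 rose and 18 fell, beside 16.2% and 45.6% of all genes. Without 12 m array 3, chosen after seeing the data, 3 rose and 12 fell, beside 20.8% and 28.4%.

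In Ctrl28 2 of the 30 rose and 12 fell against Ctrl, beside 16.9% and 21% of all genes. *Tubb4a*, a tubulin of myelinating cells, averaged 211.9 ± 109 in Ctrl28 and 678.3 ± 70.1 in Ctrl (log2 change -1.79, adjusted p = 2.54e-05), *Pllp*, a myelin proteolipid, fell by 1.35 (5.42e-05), and *Lpar1*, a lysophosphatidic acid receptor, rose by 1.14 (5.14e-05). In IH28D against Ctrl28 *Tubb4a* (1.33, adjusted p = 0.00149) and *Pllp* (0.65, 0.0395) rose and *Opalin*, a sialylated myelin glycoprotein, fell (-0.70, 0.0308), which were all the calls among the 30. A fit without Ctrl28 array 1, chosen after seeing the data, gave 6 risen and 19 fallen in Ctrl28 against Ctrl, where 23.8% of all genes rose and 29.5% fell, and 6 risen and 1 fallen in IH28D against Ctrl28, where 11.4% rose and 4.19% fell.

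After 5 days of IHT none of the 30 passed in limma, with *Opalin* (-0.63, adjusted p = 0.0569) nearest. An unadjusted p below 0.05 was found for 11 of the 30, beside 3375 of all 11657 genes. When Ctrl28 array 1 was left out of the fit, 4 rose and 8 fell, beside 14.2% and 9.19% of all genes. In IH5DR2 *Lpar1* rose (0.71, adjusted p = 0.0233) and *Gsn* (-0.71, 0.0437) and *Tmem88b* (-0.62, 0.0483) fell against Ctrl, with 0 called in either direction under median centring and 5 and 5 without Ctrl28 array 1, beside 13.7% and 8.6% of all genes.

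**Figure D4:**
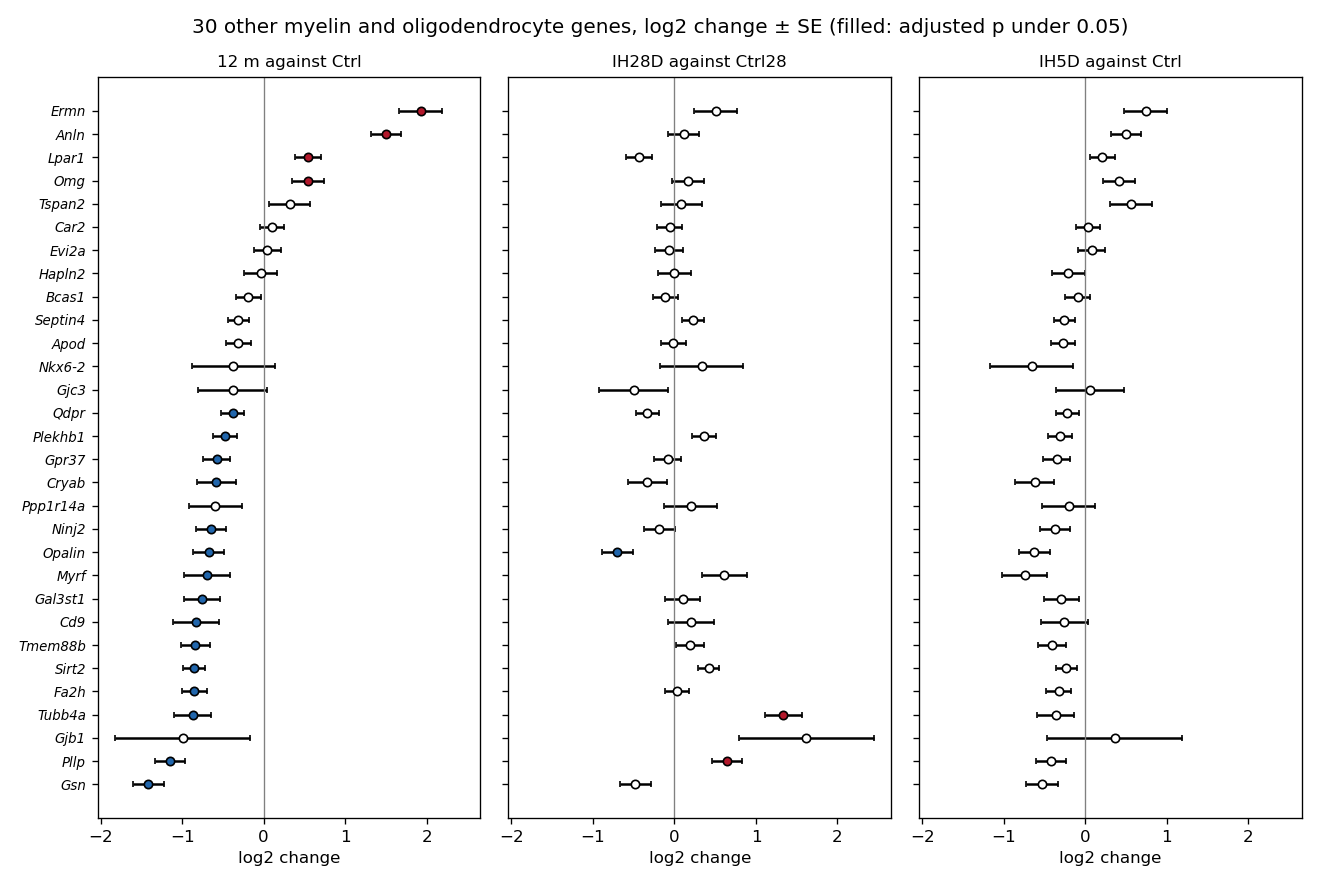
log2 change with its SE of 30 other myelin and oligodendrocyte genes at 12 m and in IH5D against Ctrl and in IH28D against Ctrl28, ordered by the change at 12 m. Filled points passed an adjusted p of 0.05: 4 rose and 15 fell at 12 m, 2 rose and 1 fell in IH28D and none passed in IH5D.

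Of 20 genes of the precursor cells and the lineage, 18 were tested, and 7 rose and 6 fell at 12 m against Ctrl, beside 21.7% and 31.6% of all genes. *Tnr*, an extracellular matrix tenascin, averaged 363.3 ± 72.6 at 12 m and 169 ± 31.6 in Ctrl (log2 change 1.10, adjusted p = 0.000375). *Ptprz1*, a receptor phosphatase of precursors, rose by 0.65 (0.00121) and *Vcan*, versican, by 1.10 (0.00254), whereas *Olig1*, a transcription factor of the lineage, averaged 734.2 ± 137 at 12 m and 1216 ± 179 in Ctrl (-0.73, 0.000506). With median centring 5 rose and 8 fell, beside 16.2% and 45.6% of all genes. In Ctrl28 3 rose and 4 fell against Ctrl, close to the shares of all genes (16.9% and 21%), the 4 being *Sox8* (-0.89), *Lingo1* (-0.65), *Olig2* (-0.77) and *Olig1* (-0.48). *Ptprz1* alone passed in IH5D (0.52, adjusted p = 0.0397) and in IH5DR2 (0.55, 0.0352), and none of the 18 in IH28D against Ctrl28. There 5 of the 18 had an unadjusted p below 0.05, beside 2899 of all 11657 genes. With median centring none was called in IH5D or IH5DR2. With Ctrl28 array 1 left out of the fit, 5 rose in IH5D, beside 14.2% of all genes. In IH5DR2 2 rose and 1 fell, beside 13.7% and 8.6%, and in IH28D 1 rose, beside 11.4%.

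Of 16 axonal genes of the node and paranode, the sites where myelin meets the axon, 14 were tested, and 8 rose and 3 fell at 12 m against Ctrl, beside 21.7% and 31.6% of all genes. *Scn1a*, a sodium channel subunit, averaged 690.3 ± 260 at 12 m and 160.4 ± 49.1 in Ctrl (log2 change 2.09, adjusted p = 4.71e-05), *Kcna2*, a juxtaparanodal potassium channel, rose by 1.24 (0.000131) and *Cntn1*, the axonal adhesion protein contactin, by 1.04 (0.000372). With median centring 5 rose and 4 fell, beside 16.2% and 45.6% of all genes. In IH5D *Kcna1* (0.56, adjusted p = 0.0293), *Cntn1* (0.68, 0.0456) and *Ank3*, the nodal scaffold ankyrin-G (0.43, 0.0456), rose, beside 5.4% of all genes, and 0 did under median centring. In IH28D against Ctrl28 *Sptbn4*, a nodal spectrin, averaged 309 ± 46.1 in IH28D and 165 ± 58.4 in Ctrl28 (0.95, adjusted p = 0.00308), the one call of the 14, and it fell in Ctrl28 against Ctrl (-1.06, 0.000285). With Ctrl28 array 1 left out of the fit, 6 of the 14 rose in IH5D, beside 14.2% of all genes. In IH5DR2 4 rose, beside 13.7%, and in IH28D 2 rose and 1 fell, beside 11.4% and 4.19%. With all arrays kept, none of the 14 was called in IH5DR2. There 6 of the 14 had an unadjusted p below 0.05, beside 3326 of all 11657 genes.

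A list of 16 genes of sphingolipid and myelin lipid metabolism held enzymes of synthesis and of breakdown. Of these 16 genes, 1 rose and 11 fell at 12 m against Ctrl, beside 21.7% and 31.6% of all genes. In Ctrl28 against Ctrl 1 rose and 7 fell, beside 16.9% and 21%. In IH28D against Ctrl28 0 rose and 1 fell, beside 6.06% and 2.44%. In IH5DR2 against Ctrl 1 rose and 1 fell, beside 4.38% and 1.24%. In IH5D against Ctrl 0 rose and 1 fell, beside 5.4% and 1.12%. The increase of *Ugt8a* at 12 m thus stood beside decreases in most of this list. With Ctrl28 array 1 left out of the fit, 1 rose and 5 fell in IH5DR2, beside 13.7% and 8.6% of all genes. In IH5D 1 rose and 4 fell in that fit, beside 14.2% and 9.19%. With median centring none of this list was called in IH5DR2 or IH5D. Of 17 tested genes of cholesterol synthesis, 3 rose and 3 fell at 12 m against Ctrl, beside 21.7% and 31.6% of all genes. Under median centring 2 rose and 8 fell at 12 m, beside 16.2% and 45.6%. Without Ctrl28 array 1, 3 rose and 6 fell at 12 m, beside 23.6% and 36.9%. In Ctrl28 against Ctrl 4 rose and 6 fell, beside 16.9% and 21%. Markers of other cell types gave 2 risen and 4 fallen of 10 astrocyte genes, 1 and 5 of 9 microglial genes and 0 and 2 of 9 endothelial genes at 12 m against Ctrl, beside 21.7% and 31.6% of all genes. In IH28D against Ctrl28, 3 of the 9 microglial genes rose and 0 fell, beside 6.06% and 2.44% of all genes. Of these 9 genes, 6 had a log2 change above 0, and the others were at or below 0.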

How the data were processed

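RNA of 18 hippocampal samples was measured on Affymetrix Mouse Genome 430 2.0 arrays, 3 per group. The authors computed MAS5 signals, and the deposited values are log2 of these signals, scaled so that the mean without the lowest and highest 2% of probe sets was 100 on each array. Arrays have no read depth, so their number limits the precision. Of 45101 probe sets, 34958 are annotated to 1 gene, 932 to several and 9211 to none. Here, 1 probe set per gene (highest mean signal, above 20, annotated to 1 gene) was fitted with limma 3.58.1 in R 4.3.3 (6 group means, 12 residual degrees of freedom, variance trend), with Benjamini-Hochberg adjustment over 11657 genes. The fit was tested on simulated data. All 9 listed genes are named, and of other lists at most the 4 genes of smallest p per comparison, apart from genes whose whole count of 5 or fewer is listed. The members, lists and tests were chosen with earlier results of these data known. Alternatives covered probe set choice, minimum signal, log offset, normalization, variance model, covariate, block, samples, controls and the methods' t-test. Deviations of same-numbered arrays correlated above 0.1 in 9 of 18 pairs, and in all 3 pairs of IH5D against Ctrl alone (0.153, 0.289 and 0.239), where the replicate numbers of the labels were taken as pairs. Correlations between arrays were 0.875 to 0.903 within groups and 0.843 to 0.897 between them, and no arrays were identical. Promoters are from RefSeq (GRCm38.p6).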

Additional observations from a re-analysis of the deposited data

Results flagged for a closer look

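The change after 28 days of IHT differed from that after 5 days for 2 of the 9 genes, by a test of the difference itself in limma. For *Mag* the difference was 0.982 on the log2 scale (SE 0.294, adjusted p = 0.0426), with mean signals of 458.3 in IH28D, 314.2 in Ctrl28, 531.6 in IH5D and 682.4 in Ctrl. For *Ugt8a* it was -0.722 (SE 0.205, adjusted p = 0.0338), with mean signals of 505.1 in IH28D, 600.3 in Ctrl28, 433.9 in IH5D and 310.7 in Ctrl. The *Mag* call was lost in 18 and the *Ugt8a* call in 11 of 30 other settings, and median centring lost both (adjusted p = 0.0986 and 0.0834). Both differences contain the difference between the 2 controls (*Mag* -1.20, *Ugt8a* 0.95 in Ctrl28 against Ctrl), which was larger in size than either. Against Ctrl alone, *Mag* changed by -0.58 in IH28D and -0.36 in IH5D, and *Ugt8a* by 0.71 and 0.48. Measured that way, IH28D was lower than IH5D for *Mag* and higher for *Ugt8a*, the opposite direction to both differences. IH28D was not tested against IH5D directly.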

How the results depend on the processing

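The counts of the 9 genes called were 1 in IH5D, 1 in IH5DR2 and 7 in 12 m against Ctrl, 0 in IH28D against Ctrl28, 0 in IH5DR2 against IH5D, 6 in Ctrl28 against Ctrl and 2 for the difference of 28 from 5 days. With the replicate block these counts were the same: 1, 1, 7, 0, 0, 6 and 2. Leaving out 1 array gave 0 to 3, 0 to 5, 6 to 8, 0 to 2, 0 to 0, 4 to 7 and 0 to 4 in the same order.

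Other settings moved the counts, and the cause was not tested. The share of all genes called is not given for the mean of probe sets, the other minimum signals or no variance trend. Nor is it given for array weights, the gap fits, only the arrays compared or the methods' t-test. Whether the counts in these settings moved more than the calls over all genes was not tested. The mean of a gene's probe sets gave 0 in IH5D and 1 in IH28D, no minimum 0 in IH5D and 1 for the difference, and a minimum of 100 gave 2 in IH5D, 2 in IH5DR2 and 1 in IH28D. Median centring gave 0 in IH5D and 0 for the difference, quantile normalization 1 in IH28D, and no variance trend 1 for the difference. Array weights gave 3 in IH5D, 6 in IH5DR2, 6 in IH28D and 8 for the difference, and a fit with the control probe set gap 3, 6, 2 and 5. With only the arrays compared, IH5D gave 2, IH5DR2 4 and the difference 0. The methods' t-test on signals gave 3 in IH5D, 2 in IH5DR2, 1 in IH28D and 1 in IH5DR2 against IH5D at an unadjusted p below 0.05, and after adjustment 0 in IH5D, IH5DR2, 12 m and Ctrl28. On log2 signals, adjusted, it gave 0 in IH5D, IH5DR2 and Ctrl28 and 1 in 12 m. With the other control, 5 were called in IH28D and 1 in 12 m. Without Ctrl28 array 1 and with the gap covariate, chosen after seeing the data, 0 were called in Ctrl28 and 2 in 12 m, while *Mag* was -1.24 in Ctrl28 and -0.76 at 12 m, *Mog* -0.90 and -0.82.

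Directions of called values reversed in these cases. *Mobp* in Ctrl28 against Ctrl was -0.25 with the mean of its probe sets. With Ctrl as the control of IH28D, *Mag* was -0.58, *Mog* -0.64, *Cldn11* -0.42 and *Ugt8a* 0.71. With Ctrl28 as the control of 12 m, *Mag* was 0.23, *Mog* 0.0577, *Aspa* -0.0604 and *Ugt8a* -0.22.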
